A study of Mus musculus with 2 samples.

Results

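Small nuclear RNAs (snRNAs) were followed through the fragments they left in small RNA libraries of J1 mouse embryonic stem cells. The members were selected on their read counts. They are the 579 of 1383 transcripts annotated as snRNA in GENCODE M21 that were matched by at least 10 reads of the control and PD libraries together. A tag is a distinct read sequence with its count, and a tag was counted only where its whole length matched the transcript without a mismatch. No counted tag matched a named miRNA hairpin or a snoRNA. Of the other snRNA transcripts, 121 had 1 to 9 reads and 683 had none. At the limit itself, 4 transcripts held exactly 10 reads, 3 held 9 and 22 held 8. Since the sum of both libraries chose the members, their levels are given as a description.

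J1 is an established mouse embryonic stem cell line, grown here on gelatin, without feeder cells, in serum replacement medium. The medium held LIF, the cytokine on which self-renewal of these cells rests, at 1000 U/mL. One group received 1 μM PD0325901 (PD), a MEK inhibitor that blocks ERK1/2 signaling, for 24 h, and the other received DMSO for 24 h (control). RNA of independent experiments was pooled, and 1 library stood for each treatment. There were no replicates, so no difference was tested. Folds are PD over control in RPM, the reads of an snRNA scaled to 1000000 clean reads of its library, with a 95% interval from the read counts. PCR reads without molecular identifiers are not independent molecules, and the intervals cover counting error alone.

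Depth was similar, with 18870345 clean reads in control and 20944808 in PD. A count of 3 reads equals 0.159 RPM in the former and 0.143 RPM in the latter. The share of reads of 20 to 24 nt was 63.0% in control and 52.0% in PD, and that of 28 to 32 nt was 7.11% and 17.0%. All 14 listed hairpins of stem cell miRNAs had reads, with 33363 RPM together in control and 28670 in PD. The listed hairpins of fibroblasts and feeders (5 of 5 with reads) summed to 209 and 179 RPM, those of muscle (4 of 4) to 157 and 166 RPM and those of neurons (2 annotated, both with reads) to 257 and 476 RPM, and the 1 liver hairpin had 2.91 and 2.01 RPM.

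The spliceosome removes introns from pre-mRNA and is built from RNA-protein particles, each with its own snRNA. U1 pairs with the 5′ splice site and U2 with the branch point. U4 arrives base-paired with U6, and U5 holds the exons. After U4 leaves, U6 pairs with U2 and with the 5′ splice site and takes part in the catalytic center. U11, U12, U4atac and U6atac do the same work on the rare minor introns. U7 is no spliceosomal RNA and acts in 3′ end processing of histone mRNA. Most of these RNAs carry an Sm site, a short U-rich stretch that a ring of Sm proteins encloses. U6 and U6atac have none and end in a run of U bound by Lsm proteins. The libraries held reads of 18 to 44 nt while the snRNAs are longer, so each read is a piece of an snRNA, and its count is no level of the intact RNA.

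The sequences below show, for U1, U2, U4-like, U11, U12 and U4atac-like, where the most frequent reads lay. Each line is the whole GENCODE transcript on GRCm38, 5′ to 3′, with its most frequent tag in capitals. Positions are counted from 1 at the 5′ end of the transcript. The first 3 lines are U1, U2 and the U4-like transcript.
Rnu1a1: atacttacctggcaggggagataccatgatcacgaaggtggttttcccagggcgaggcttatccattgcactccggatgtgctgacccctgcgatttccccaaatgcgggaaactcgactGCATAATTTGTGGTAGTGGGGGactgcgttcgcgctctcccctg
Rnu2-10: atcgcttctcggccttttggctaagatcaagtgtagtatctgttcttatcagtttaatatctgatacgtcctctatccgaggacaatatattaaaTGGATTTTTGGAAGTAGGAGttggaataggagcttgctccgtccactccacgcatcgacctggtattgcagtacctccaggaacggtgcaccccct
Gm24265: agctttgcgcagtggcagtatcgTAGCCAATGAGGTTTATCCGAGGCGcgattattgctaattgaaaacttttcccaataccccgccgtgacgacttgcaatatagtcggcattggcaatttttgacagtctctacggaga
Rnu11: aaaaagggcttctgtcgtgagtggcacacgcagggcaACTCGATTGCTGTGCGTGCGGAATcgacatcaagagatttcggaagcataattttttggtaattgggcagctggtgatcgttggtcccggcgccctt
Rnu12: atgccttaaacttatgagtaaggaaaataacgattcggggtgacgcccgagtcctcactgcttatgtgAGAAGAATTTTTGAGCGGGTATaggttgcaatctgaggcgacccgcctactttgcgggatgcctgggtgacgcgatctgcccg
Gm22710: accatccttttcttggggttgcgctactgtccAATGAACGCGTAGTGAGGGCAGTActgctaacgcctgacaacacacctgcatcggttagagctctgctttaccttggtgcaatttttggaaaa

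These genes lie apart from each other. Rnu1a1 (chr11:87422867-87423030, plus strand) is in an intron of Tex14. Rnu2-10 (chr11:101658238-101658428, plus) and Rnu12 (chr15:83149644-83149794, plus) overlap no other annotated gene. Gm24265 lies at chr5:115489459-115489599 on the plus strand. Rnu11 (chr4:132270080-132270213, minus) overlaps an exon of Gm28872 on the other strand, and Gm22710 (chr1:118459141-118459265, minus) overlaps an exon of 2900060B14Rik on its own strand and an intron of Clasp1 on the other. Gm24265, Gm25541 and Gm22710 carry no snRNA name in the annotation, and no named gene was at least 70% identical to them. They are called U4-like, U6atac-like and U4atac-like after their known sequences, a choice made after the reads had been seen. Gm24265 holds a run of 8 bases at positions 5 to 12 that is complementary to positions 63 to 70 of Rnu6. A run of that length was also held by 109 of 453 transcripts outside these types (24.1%).

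Together 2828 tags matched snRNAs, of which 1315 were seen once. They made up 30018 reads in control (0.159% of clean reads, 95% Wilson interval 0.157 to 0.161) and 32583 reads in PD (0.156%, 0.154 to 0.157). The sum was 1591 RPM in control and 1556 RPM in PD, a fold of 0.978 (0.963 to 0.993). The direction of this small difference turned in some settings: it was 1.18 over clean reads of 20 to 24 nt and 1.04 with tags of at least 20 nt, and 0.936 to 0.962 with the other denominators.

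The types differed beneath that sum. U2 gave 59.6% of snRNA reads in control and 50.2% in PD, U1 gave 23.8% and 24.7%, and U6 gave 9.75% and 17.7%. U6 had 2926 reads in control and 5782 in PD (155 and 276 RPM), 1.78-fold higher in PD (1.70 to 1.86). U2 had 17899 and 16359 reads (949 and 781 RPM), a fold of 0.823 (0.806 to 0.841). U1 had 7132 and 8058 reads (378 and 385 RPM), a fold of 1.02 (0.986 to 1.05). U6 alone of the 10 types passed the study's threshold of 1.5-fold over all clean reads. Over clean reads of 20 to 24 nt U11 passed too (1.71), and with tags and clean reads of 18 to 27 nt, a setting chosen after seeing the data, U11 passed (1.56) and U6 did not (1.43). Per 100 nt of its reference transcript, U2 had 497 RPM in control, U1 230 and U6 145, and in PD the 3 values were 409, 235 and 258. U6 thus lay below U1 in control and above it in PD. Of the U6 sum, 14.0 RPM in control and 88.7 RPM in PD were of 5 tags described below. The order without these tags was not computed.

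The less frequent types had 100 to 1316 reads over both libraries. U11 had 361 reads in control and 566 in PD, 1.41-fold higher in PD (1.24 to 1.62), and U12, its partner in recognizing minor introns, had 677 and 639 reads, a fold of 0.850 (0.762 to 0.949). Their intervals do not overlap. For U4-like, U5, U4atac-like, U6atac-like and U7 the interval of the fold held 1. U4-like had 560 and 656 reads (1.06, 0.941 to 1.18), U6atac-like 174 and 199 (1.03, 0.836 to 1.27), U5 150 and 166 (0.997, 0.795 to 1.25), U4atac-like 79 and 97 (1.11, 0.813 to 1.51) and U7 49 and 51 (0.938, 0.621 to 1.42). Tags of transcripts that fit no type had 11 reads in control and 10 in PD. Matches outside the annotated transcripts were not looked for. Some counts cannot be told from host transcripts: all U7 reads also matched Grcc10, whose exon holds Rnu7, all U4atac-like reads also matched 2900060B14Rik, 103 and 114 of the U5 reads also matched B930036N10Rik, 56 and 73 of the U6atac-like reads also matched C5ar2, and 700 of the control and 1044 of the PD reads of U6 also matched other annotated transcripts such as Med23 and Rnf225, which hold U6-like sequence.

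**Figure D1:**
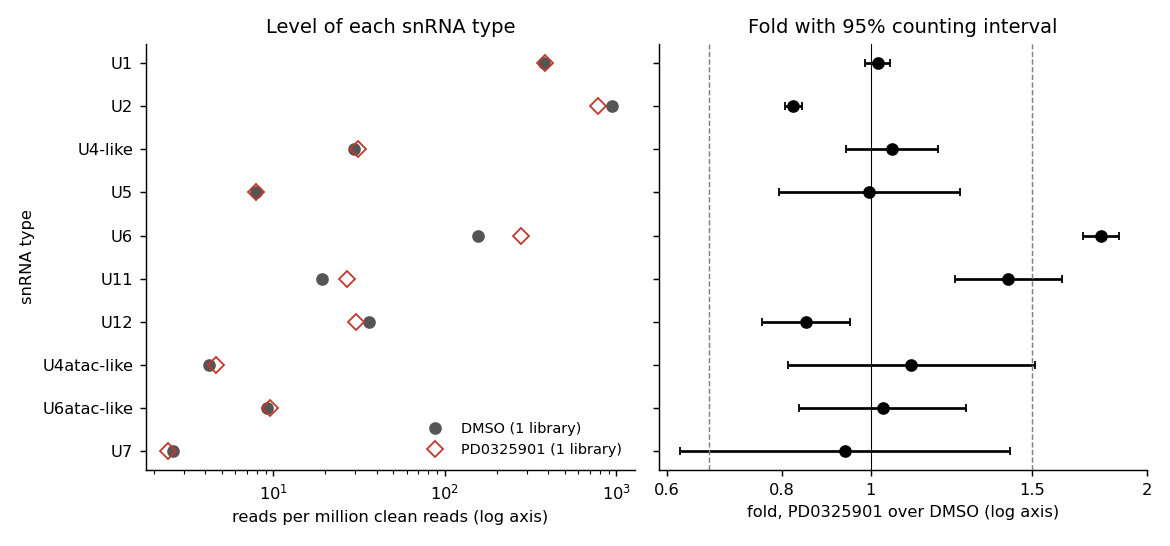
The left panel plots the RPM of each snRNA type (log axis) in the control (DMSO) library (gray circles) and the PD library (open red diamonds), and the right panel the fold of PD over control (log axis) with its 95% counting interval, with dashed lines at 1.5-fold either way. U6, at 1.78, is the point to the right of the dashed line, U11 lies at 1.41 and U2 at 0.823, and the other intervals except that of U12 hold 1.

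Members share most of their reads, so the number of members is not a number of active genes. The 579 members have 503 distinct sequences, and 442 of them are U6 copies, 62 are U1, 24 U2, 9 U4-like, 8 U5, 5 U6atac-like, 4 U12, 3 U11, 2 U7, 1 U4atac-like and 19 of no type. Rnu6 itself has 43 transcripts of identical sequence, Rnu1a1 has 7 and Rnu2-10 has 4. Tags that matched 1 transcript alone held 6.99% of the snRNA reads, and of the 8708 U6 reads 61 were of that kind. Members with at least 10 reads that matched no other sequence made up 18 distinct sequences.

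Of the 579 members, 192 were higher in PD by 1.5-fold or more and 35 were lower, against 21.5% and 9.04% of all 2102 small RNA transcripts with at least 10 reads (452 and 190). Since members are part of these 2102, the shares without snRNAs were 17.1% and 10.2% of 1523. The median log2 fold was 0.33 over the members and -0.03 over the transcripts that are not snRNAs. The count of higher members was a count of U6 copies: 186 of the 192 were U6. Of the 442 U6 members, 159 hold the stretch from position 21 to 49 of Rnu6, and all 159 were higher by 1.5-fold or more, with a median of 1.86-fold. Of the 283 U6 members without it, 27 were higher and 17 lower (9.54% higher, median 1.23-fold). Rnu6-ps2, a U6 pseudogene with 261 reads in control and 295 in PD, had a fold of 1.02 (0.859 to 1.21), all of them reads shared with other U6 copies, beside 2846 and 5662 reads and 1.79 (1.71 to 1.88) for Rnu6. Counted as distinct sequences, 138 of 503 members were higher and 35 lower.

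U6 is the only major spliceosomal snRNA without an Sm site, and many of its reads lay over or next to the ACAGAGA box at positions 41 to 47, which pairs with the 5′ splice site. Tags of Rnu6 ended most often at position 65 (1062 control and 1484 PD reads) and at position 49, just past the box (297 and 1891 reads). They started most often at position 21 (377 and 1387 reads), 42 (640 and 897) and 20 (219 and 1062). Tags that hold the whole box had 939 of 2846 Rnu6 reads in control and 2859 of 5662 in PD (50.5%).

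The tags that start at position 20 or 21 and end at 48 to 50 carried most of the difference. There were 5 such tags, with 265 reads in control and 1857 in PD (14.0 and 88.7 RPM), 6.31-fold higher in PD (5.55 to 7.21). They made up 9.31% of the Rnu6 reads in control and 32.8% in PD. All remaining Rnu6 tags had 2581 and 3805 reads, a fold of 1.33 (1.26 to 1.40), so U6 without these 5 tags did not reach 1.5-fold. The most frequent tag of U6, from 21 to 49, had 217 reads in control and 1059 in PD, a fold of 4.40 (3.80 to 5.11). The tag from 20 to 49 is 1 base longer at the 5′ end and had 10 and 667 reads, a fold of 60.1 (32.5 to 126). The tag from 42 to 65 had 497 and 701 reads, a fold of 1.27 (1.13 to 1.43). Of the reads of the tags from 20 and from 21 to 49 together, the longer form made up 4.41% in control (exact Clopper-Pearson interval 2.13 to 7.95) and 38.6% in PD (36.3 to 41.0).

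A fold of this size was not confined to U6 among long tags. Of the 577 tags of 30 nt with at least 50 reads in the whole of both libraries, 48 (8.32%) had a fold at least as large or were listed at 0 in control (18 of the 48), and the median fold of these 577 tags was 4.10. Among the 982 tags of 29 nt, the median was 2.08 and 4 reached, in the same sense, the fold of the longer U6 tag. The neighboring U6 tag from 22 to 49, 28 nt long, had 11 and 60 reads, a fold of 4.91 (2.56 to 10.4). The tag from 20 to 48, 29 nt long, had 3 and 37 reads, a fold of 11.1 (3.52 to 56.3), and the tag from 21 to 48, 28 nt long, had 35 and 92 reads, a fold of 2.37 (1.59 to 3.60).

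The U6 difference was also seen among reads of the same length. Over the clean reads of each length class, U6 was higher in PD by 1.91-fold at 18 to 19 nt (1.57 to 2.33), 1.40-fold at 20 to 24 nt, 1.29-fold at 25 to 27 nt (1.18 to 1.41) and 1.97-fold at 28 to 32 nt (1.77 to 2.18). At 28 to 32 nt this rested on the 5 tags that start at 20 or 21 and end at 48 to 50. The other Rnu6 tags of that length had 159 and 370 reads. Their fold in RPM was 2.10 (1.74 to 2.54), beside 2.38 for all other clean reads of that length. For tags that end at position 65 the fold over reads of the same length was 1.48 at 20 to 24 nt (1.35 to 1.64), and for tags that end at 49 it was 2.85 at 28 to 32 nt (2.49 to 3.28). U2 stood at 0.771 (0.742 to 0.801), 1.00 (0.968 to 1.03), 0.801 (0.767 to 0.837) and 0.688 (0.598 to 0.791) in the 4 length classes, and U1 at 0.775 (0.713 to 0.841), 1.22 (1.17 to 1.27), 1.16 (1.05 to 1.27) and 1.11 (0.907 to 1.37). In each of the 4 classes the U6 interval lay above that of U2.

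**Figure D2:**
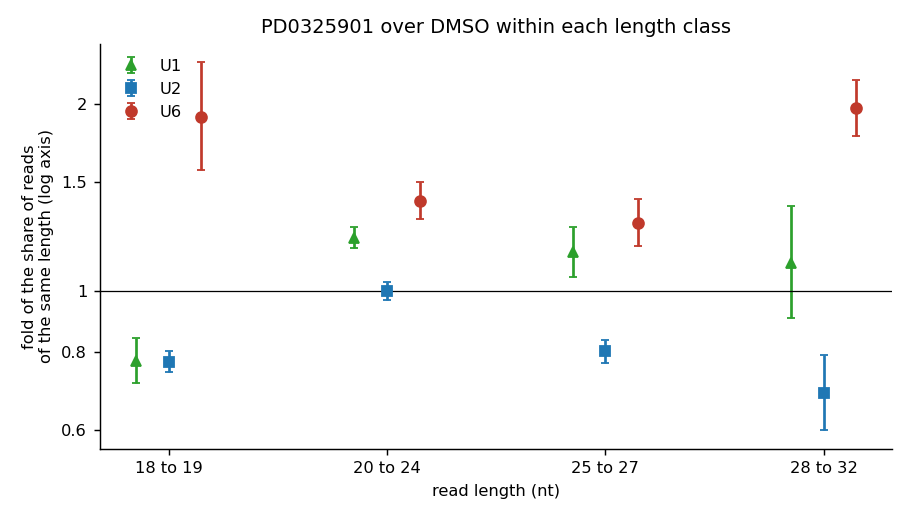
Fold of PD over control (log axis) in the share that U1 (green triangles), U2 (blue squares) and U6 (red circles) had of the clean reads of the same length, with 95% counting intervals, for 4 classes of read length in nt. U6 lies above 1 in all 4 classes, from 1.29 to 1.97, and U2 lies between 0.688 and 1.00.

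The 3′ end of U6, a run of U that is lengthened and trimmed in cells, was read in both libraries. Tags that end at the annotated last base, position 107, had 206 reads in control and 321 in PD, a fold of 1.40 (1.17 to 1.68). Reads with 1 to 3 T beyond that base had 188 and 321 reads, a fold of 1.54 (1.28 to 1.85). With 1 added T there were 118 and 200 reads, with 2 there were 43 and 76, and with 3 there were 27 and 45. These added bases are not in the annotated copy, and their reads are in none of the U6 counts above.

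**Figure D3:**
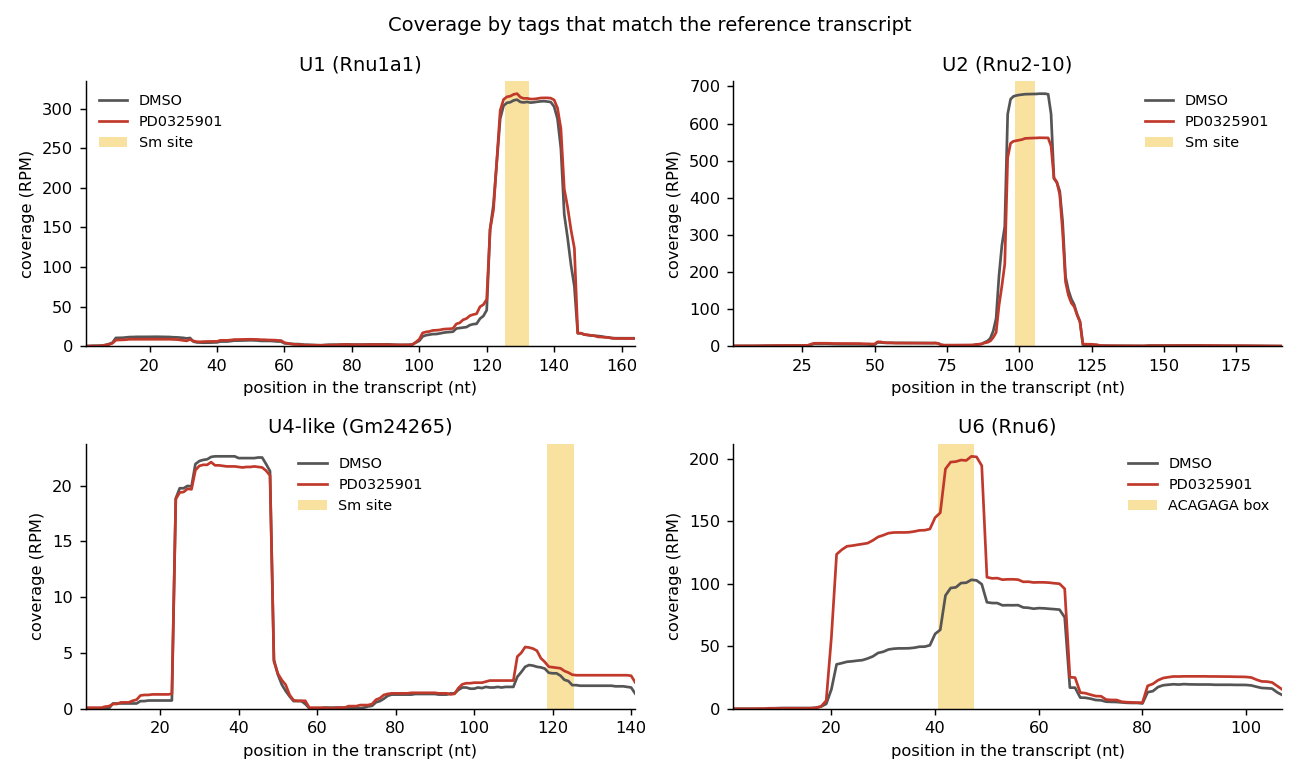
Coverage in RPM (vertical axis) along the reference transcripts of U1, U2, U4-like and U6 (position in nt) in control (gray) and PD (red), with the Sm site, or for U6 the ACAGAGA box, shaded yellow. U1 and U2 have a single peak over the Sm site, and U4-like has its peak at positions 24 to 48 away from it. The PD line of U6 stands above the control line from position 20 to the 3′ end at 107.

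U1 and U2 were read almost entirely over the Sm site. The Sm site was searched as ATTTGTG in U1, ATTTTTG in U2, U12, U4-like and U4atac-like, ATTTGTC in U7 and, in U5 and U11, as the same motif with 1 more T (ATTTTTTG), on the sense strand. In Rnu2-10 it lies at positions 99 to 105, and 96.3% of the reads in control and 94.7% in PD spanned it, whereas 8.60% and 8.78% of all windows of the same lengths in this transcript do. In Rnu1a1 it lies at 126 to 132 and was spanned by 82.5% and 82.3% of reads, against 11.1% and 11.6% of windows. In Rnu12 it lies at 75 to 81 and was spanned by 90.0% and 89.5%, against 12.9% and 13.6%. Among all snRNA transcripts 3.33% hold ATTTTTG and 12.9% hold ATTTGTG, and among snoRNAs and scaRNAs 0.128% and 0.963% do.

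The other types were not read at the Sm site to that extent. In Rnu5g, at positions 88 to 95, it was spanned by 9.28% of control and 9.32% of PD reads, against 15.2% and 14.3% of windows. In Rnu11 the shares were 6.09% and 3.89%, against 14.0% and 14.2%. In Gm24265 they were 7.41% and 10.2%, against 14.2% and 14.1%, and in Gm22710 no read of 79 and 97 spanned it. Rnu7 had 24 of 49 control and 17 of 51 PD reads over its site at positions 22 to 28. The 5′ ends of U1 and U2 were nearly unread: 2 control reads and 0 PD reads began at position 1 of Rnu1a1, and 7 and 12 at position 1 of Rnu2-10. In Rnu5g 13 of 97 control reads and 11 of 118 PD reads began there. The stretch ACTTACC at positions 3 to 9 of U1, which pairs with the 5′ splice site, and GTAGTA at positions 33 to 38 of U2, which pairs with the branch point, were spanned by at most 1.18% of the reads of their snRNA.

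The borders of the U1 and U2 fragments differed between the libraries. U1 tags started most often at position 121 (1956 control and 1870 PD reads, 0.861-fold, 0.808 to 0.918). Those that end at position 146 had 1303 and 2449 reads, 1.69-fold higher in PD (1.58 to 1.81), and went from 18.9% to 31.3% of the Rnu1a1 reads. Those that end at 142 had 1573 and 1598 reads (0.915, 0.853 to 0.982), and those that end at 141 had 706 and 544 (0.694, 0.620 to 0.777). The most frequent U1 tags show this, with the Sm site in capitals.
U1 from 121 to 142: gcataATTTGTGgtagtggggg
U1 from 123 to 146: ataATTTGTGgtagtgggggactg
U1 from 124 to 146: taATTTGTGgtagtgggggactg
The first had 759 reads in control and 798 in PD, a fold of 0.947 (0.857 to 1.05). The second had 336 and 751 reads (2.01, 1.77 to 2.30) and the third 356 and 652 (1.65, 1.45 to 1.88). Over reads of the same length, tags that end at 146 were higher in PD at 20 to 24 nt (818 and 1617 reads, 2.16-fold, 1.98 to 2.35) and at 25 to 27 nt (414 and 704, 1.43-fold, 1.26 to 1.62), and at 18 to 19 nt the fold was 0.890 (0.592 to 1.34). In the same measure, ends 142 and 141 stood at 1.07 (0.990 to 1.165) and 0.880 (0.769 to 1.01) at 20 to 24 nt, so both intervals held 1. At 18 to 19 nt they stood at 0.749 (0.621 to 0.901) and 0.599 (0.477 to 0.750). A second, small U1 fragment began at position 147 (185 and 201 reads, 0.979, 0.798 to 1.20) and ran to the 3′ end of the transcript at 164.

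In U2 too, the fold differed between the ends of the fragments, with the earlier ends lower in PD. Tags of Rnu2-10 that end at position 111 had 3292 reads in control and 1804 in PD, a fold of 0.494 (0.466 to 0.523), and those that end at 110 had 1007 and 465 (0.416, 0.372 to 0.465). Tags that end at 115, the most frequent end, had 2805 and 2827 reads (0.908, 0.862 to 0.957). Tags that end at 113 and 114 were higher in PD, with 431 and 702 reads (1.47, 1.30 to 1.66) and 1560 and 2106 reads (1.22, 1.14 to 1.30). The most frequent tags follow, with the Sm site in capitals.
U2 from 96 to 115: tggATTTTTGgaagtaggag
U2 from 96 to 114: tggATTTTTGgaagtagga
U2 from 93 to 111: aaatggATTTTTGgaagta
They had 2010 and 1916 reads (0.859, 0.806 to 0.915), 1233 and 1554 reads (1.14, 1.05 to 1.22) and 1376 and 785 reads (0.514, 0.470 to 0.561). The second and the third tag are both 19 nt long and differ in place and in their first base (T and A). Over reads of the same length, tags that end at 111 stood at 0.520 at 18 to 19 nt (0.487 to 0.555) and at 0.518 at 20 to 24 nt (0.454 to 0.590). U2 starts moved with these ends: starts at 91, 92, 93 and 94 had folds of 0.486, 0.399, 0.635 and 0.644, and starts at 95 and 96 had 1.17 and 0.946.

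U2 was also read from variant genes. Of the U2 reads, 13229 in control and 12231 in PD matched Rnu2-10, and 4670 and 4128 (26.1% and 25.2%) matched other U2 genes alone, with folds of 0.833 (0.813 to 0.854) and 0.796 (0.764 to 0.831). Gm25360 (chr1:72226240-72226430, plus) differs from Rnu2-10 by the substitutions C78T, A95G, G109C and C154T, given as the Rnu2-10 base, its position and the Gm25360 base. It had 1090 and 1010 reads that matched no other snRNA sequence, the most of any member, with a fold of 0.835 (0.766 to 0.910). The leading tags that matched Gm25360 and not Rnu2-10 are shown above the same stretch of Rnu2-10, with the differing bases in capitals.
Gm25360 from 96 to 121: tggatttttggaaCtaggagttggaa
Rnu2-10 from 96 to 121: tggatttttggaaGtaggagttggaa
Gm25360 from 95 to 121: GtggatttttggaaCtaggagttggaa
Rnu2-10 from 95 to 121: AtggatttttggaaGtaggagttggaa
These tags hold more reads than Gm25360 has of its own, so they are in part shared with other U2 copies. The Gm25360 tag from 96 had 834 and 671 reads (0.725, 0.654 to 0.803) and that from 95 had 674 and 588 (0.786, 0.702 to 0.879). The same stretches of Rnu2-10 had 724 and 748 reads (0.931, 0.839 to 1.03) and 112 and 114 reads (0.917, 0.700 to 1.20). Gm22973 (chr12:59040335-59040525, plus), 95.3% identical to Rnu2-10, had 286 and 289 reads of its own (0.910, 0.770 to 1.08).

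Mouse cells carry U1a and U1b genes, and U1b is known as the form of embryonic tissue. Rnu1b1 differs from Rnu1a1 by C33T, T60C, T62C, C73T, C74T, A77G and 1 added base, and Rnu1b6 by T60C, T62C, C73T, C74T, A77G, T156G and 2 added bases, with the Rnu1a1 base first. Most U1 reads matched both kinds, and the kinds were compared over the few reads that matched 1 of them. The U1b tag with the most reads spans the Sm site and had 35 reads in control and 39 in PD. In control 182 reads matched U1b genes alone and 140 U1a genes alone, a U1b share of 56.5% (Clopper-Pearson interval 50.9 to 62.0). In PD there were 186 and 158 reads, a share of 54.1% (48.6 to 59.4). The shares differed by less than their intervals. The leading U1b tags began at positions 122, 149 and 124 of Rnu1b6, in part over the heavily read Sm site. The leading U1a tags began at 45, 41 and 58. At position 45 Rnu1a1 was covered by 130 control and 172 PD reads, beside 5879 and 6684 at position 129. The share thus depends on where the differing bases lie, and it is no ratio of the 2 RNAs. Rnu1b6 and its identical copies Gm24830 and Gm26232 had 131 and 153 reads of their own (1.05, 0.828 to 1.34).

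The U4-like reads formed 1 block in the 5′ stem-loop, the part of U4 that proteins of the U4/U6 particle bind. The tag from 24 to 48 had 298 reads in control and 332 in PD (15.8 and 15.9 RPM), a fold of 1.00 (0.856 to 1.18), and held 51.8% of all U4-like reads. The 3′ end of Gm24265 was read less, and a tag of 31 nt from 111 to 141 had 12 and 37 reads (2.78, 1.42 to 5.85). The U4atac-like Gm22710 was read in the same part of the molecule, with the tag from 33 to 56 at 25 and 32 reads (1.15, 0.662 to 2.03).
Gm24265 from 24 to 48: tagccaatgaggtttatccgaggcg
Gm22710 from 33 to 56: aatgaacgcgtagtgagggcagta

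Among the minor and rare types, Rnu11 gave reads of 1 place above all. RefSeq lists mir-801 among its older names. Tags that end at position 61 had 150 reads in control and 292 in PD, 1.75-fold higher in PD (1.44 to 2.15), and the tag from 38 to 61 had 96 and 188 (1.76, 1.37 to 2.28). Tags at its 3′ end, position 134, had 32 and 37 reads (1.04, 0.631 to 1.73). In Rnu12 tags started at position 69 in 370 and 356 reads (0.867, 0.747 to 1.01). Tags of Rnu12 that end at 89 and 90 were lower in PD over all clean reads (134 and 96 reads, 0.645, 0.491 to 0.845, and 169 and 131 reads, 0.698, 0.552 to 0.883), and those that end at 97 had 10 and 41 reads (3.69, 1.82 to 8.27). Over reads of the same length, at 20 to 24 nt, end 89 stood at 0.747 (0.564 to 0.986) and end 90 at 0.869 (0.684 to 1.10). End 97 stood at 0.980 (0.282 to 3.53) at 25 to 27 nt and at 3.21 (1.15 to 12.5) at 28 to 32 nt. U5 tags started most often at position 9, with 24 and 44 reads (1.65, 0.983 to 2.84). Rnu7 tags began at 43 in 25 and 32 reads (1.15, 0.662 to 2.03).

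Length differed by type. The median length of U2 reads was 20 nt in control and 21 nt in PD, that of U1 was 22 nt in both, that of U4-like was 25 nt in both, and that of U6 was 24 nt in control and 26 nt in PD. Reads of 28 to 32 nt were 14.8% of U6 reads in control (Wilson interval 13.6 to 16.2) and 39.1% in PD (37.8 to 40.3). For U1 they were 1.77% and 4.60%, for U2 1.77% and 3.51%, for U12 6.79% and 18.2% and for U4-like 8.75% and 13.6%. All snRNA reads of 28 to 32 nt were higher in PD by 3.15-fold (2.94 to 3.39), and all other clean reads of that length by 2.38-fold. In snoRNAs the share of these lengths went from 17.4% to 25.1%, in rRNA from 4.07% to 7.99% and in scaRNAs from 1.23% to 4.71%. The fold of reads of these lengths was 1.48 in snoRNAs, 1.72 in rRNA and 3.21 (2.76 to 3.74) in scaRNAs. The part of this shift of the whole library in the values of each snRNA was not tested beyond the folds over reads of the same length given above.

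**Figure D4:**
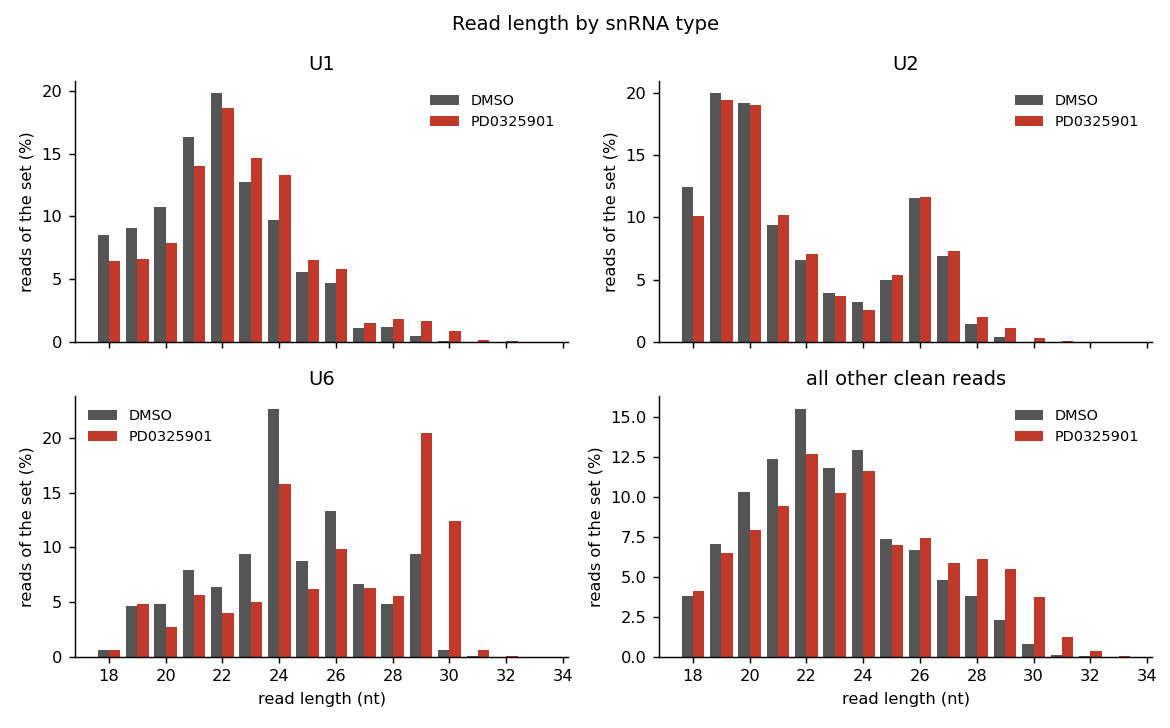
Percent of the reads of U1, U2, U6 and all other clean reads (vertical axis) at each read length in nt, in control (gray bars) and PD (red bars). Reads of 28 to 32 nt were 14.8% in control and 39.1% in PD for U6, 7.12% and 17.0% for all other clean reads, and 1.77% and 3.51% for U2.

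Single tags with at least 50 reads numbered 174, and 33 of them were higher in PD by 1.5-fold or more and 35 lower. Among all 30119 such tags of the libraries 17.9% were higher and 23.2% lower, and at 18 to 19 nt 5 of 32 snRNA tags were higher and 12 lower, beside 25.4% and 26.4% of all tags of that length. At 28 to 32 nt 9 of 15 snRNA tags were higher, beside 68.7% of all tags of that length. Of the 5 largest folds above 1, 3 were the U6 tags that end at position 49. The other two were U1 tags over the Sm site, from 113 to 142 with 4 and 46 reads (10.4, 3.78 to 39.6) and from 118 to 146 with 13 and 45 reads (3.12, 1.65 to 6.30). Of the 5 smallest folds, 4 were U2 tags that end at 110 or 111, the first of them from 92 to 110 with 226 and 74 reads (0.295, 0.224 to 0.385) and the next from 92 to 111 with 374 and 160 reads (0.385, 0.318 to 0.465). The last was a U1 tag from 121 to 139 with 61 and 26 reads (0.384, 0.233 to 0.617).

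**Figure D5:**
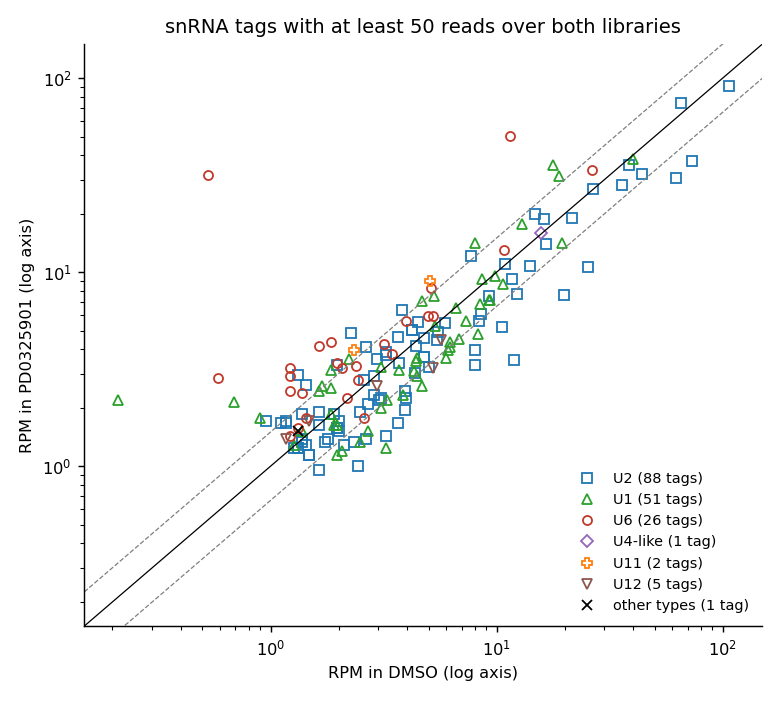
RPM in PD against RPM in control (both log axes) for the 174 snRNA tags with at least 50 reads, marked by type, with the line of equality and dashed lines at 1.5-fold. The U6 tag far above the lines at the left is the one from 20 to 49, with 0.530 RPM in control and 31.8 RPM in PD, and U2 tags (blue squares) and U1 tags (green triangles) make up the points below the lower line except for 1 U12 tag.

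Other nuclear RNAs were read beside the snRNAs. The small Cajal body RNAs (scaRNAs) guide the chemical modification of snRNAs. All transcripts annotated as scaRNA had 18192 reads in control and 16928 in PD, a fold of 0.838 (0.821 to 0.856). Genes with a Scarna name held few reads, 279 and 263. Of 9 such annotated genes 7 had at least 10 reads, with a median log2 fold of -0.49, beside 0.06 over all 2102 transcripts. Of these 7, Scarna2 was higher in PD with 23 and 61 reads (2.39, 1.46 to 4.05). Scarna3b with 80 and 46 (0.518, 0.352 to 0.754) and Scarna17 with 19 and 8 (0.379, 0.144 to 0.908) were lower by 1.5-fold or more. Over all 2102 transcripts 21.5% were higher and 9.04% lower. None of the 12 listed Rn7sk, Rn7s, Rmrp, Rpph1, Rnu3 and Snord118 genes passed 1.5-fold. Rn7sk, which like U6 is made by RNA polymerase III, had 2335 and 3004 reads (1.16, 1.10 to 1.22), Rmrp had 276 and 337 (1.10, 0.935 to 1.29) and Rpph1 had 886 and 1247 (1.27, 1.16 to 1.38). The 7SL genes, also made by polymerase III, stood at 0.997 (Rn7s1 and Rn7s2) and 1.01 (Rn7s6). The Rnu3 genes, which encode the U3 RNA of ribosome synthesis, were at 0.856.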

How the data were processed

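The authors purified small RNA of 18 to 30 nt by gel, added adapters, read both libraries on an Illumina HiSeq, removed low-quality, adapter and contaminant reads and reads under 18 nt, and deposited for each library the count of every distinct tag. The deposited counts are raw, without alignment or normalization. The submitters' notes name the mm9 build, which these counts do not use. A final row without a tag, the file total, was left out.

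Tags were matched with Python 3.11.15 to GENCODE M21 transcripts (GRCm38). Gm-named snRNAs were given the type of the nearest named gene at 70% identity or more (edlib 1.3.9.post1), and each tag was counted once, with a type over transcripts of no type. Intervals used SciPy 1.17.1. Named were members whose symbol names the snRNA, the 5 Gm members with most reads of their own, the 3 most frequent tags per type and the 5 largest rises and falls among tags with at least 50 reads. Gm24265 and Gm25541 and the ends of fragments were added after their values were seen. Members and lists were chosen with earlier results of these data known. With 1 library per treatment the quasi-likelihood test of edgeR was not run, and edgeR 4.0.16 and DESeq2 1.42.0 gave scaling factors only. Matching and intervals were tested on simulated data. Hairpins were the 1174 miRNA genes with a Mir name. Gm44469, annotated as a miRNA, shares 26 tags with U2 (27 and 31 reads), which were kept. The sequence of U6 is not reported here.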

Additional observations from a re-analysis of the deposited data

Results flagged for a closer look

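Some reads lay outside the comparisons and above the limit that a count of 0 allows (3 reads). Reads that match only the reverse complement of an snRNA numbered 39 over both libraries, 16 in control and 23 in PD, which is 0.0533% and 0.0706% of the sense reads. Reads with 1 to 3 T after a perfect snRNA match numbered 325 in control and 490 in PD, a fold of 1.36 (1.18 to 1.57), and 188 and 321 of them were at the 3′ end of U6. Reads with 1 mismatch to an snRNA and no perfect match to any GENCODE transcript numbered 1595 in control and 1518 in PD.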

How the results depend on the processing

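No paired analysis was possible because each treatment had 1 library. Of the snRNA sum, the fold of 0.978 became 1.18 over clean reads of 20 to 24 nt, 0.962 over clean reads that match no miRNA hairpin, 0.936 with TMM factors of edgeR, 0.941 with size factors of DESeq2 and 1.04 with tags of at least 20 nt. In alternatives chosen after seeing the data it was 1.01 with tags and clean reads of 18 to 27 nt only and 0.930 without the 5 U6 tags that start at 20 or 21 and end at 48 to 50. The number of types past 1.5-fold, 1 at first (U6), was 2 over clean reads of 20 to 24 nt (U6 at 2.16 and U11 at 1.71) and 0 without those 5 U6 tags (U6 at 1.33). With 18 to 27 nt only it was 1, U11 at 1.56, with U6 at 1.43. Members past 1.5-fold, 227 at first (192 higher and 35 lower), were 57 at 2-fold (38 and 19), 125 with 18 to 27 nt only (99 and 26) and 85 without the 5 U6 tags (50 and 35). Without a filter 337 of 700 passed (234 and 103), with at least 50 reads 182 of 508 (174 and 8), and over clean reads of 20 to 24 nt 335 (312 and 23). The U1b share was 50.2% in control with tags of at least 20 nt, and 67.2% in control and 62.7% in PD with the named genes only. Over the settings run, U6 ranged from 1.33 to 2.16 and U2 from 0.788 to 0.997. Leaving out tags that match other GENCODE transcripts gave no value for U4atac-like and U7. Keeping tags that match hairpins or snoRNAs could change nothing, since no snRNA tag matched one. The causes of these shifts were not tested beyond what each setting leaves out. At 10 reads over both libraries a 1.5-fold difference is within counting error.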
